A study of Mus musculus with 12 samples.

Results

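The Hedgehog pathway genes described here are *Shh*, *Ptch1*, *Smo*, *Gli1*, *Gli2*, *Gli3*, *Hhip* and *Sufu*. They were taken by gene symbol, and all 8 were found among the 55487 genes of the count table and passed the filter on low counts that left 45828 genes to test. RNA-Seq was analysed for 12 whole lungs of C57BL/6J mice with a germline deletion of *miR-30a* (miR-30a-/-), a line made by CRISPR/Cas9. Pups of either sex breathed 95% FiO2 (hyperoxia) from postnatal day (PND) 1 to PND 5 or stayed in room air, and lungs were taken on PND 21. There were 3 lungs in each of the 4 groups of sex and exposure. Every group carries the deletion and wild-type lungs were not analysed here, so nothing below measures an effect of *miR-30a* loss. The comparison asks whether neonatal hyperoxia left a trace in Hedgehog transcripts after recovery, and whether the sexes differed in it.

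Hedgehog signalling starts with a secreted, lipid-modified ligand, which in the lung is made mainly by the epithelium as Sonic hedgehog (*Shh*). Its receptor Patched 1 (*Ptch1*) lies on nearby mesenchymal cells and, when free of ligand, holds Smoothened (*Smo*) inactive. Ligand binding frees Smoothened, which works through the primary cilium on the Gli transcription factors. *Ptch1*, *Hhip* and *Gli1* are themselves switched on by the pathway and serve as its usual readouts. The pathway guides branching of the embryonic airways and the mesenchyme of the growing lung, and *Gli1* and *Ptch1* mark fibroblasts and smooth muscle cells.

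Since every lung lacked *miR-30a*, the deleted microRNA and its family are shown first, followed by the places in the Hedgehog transcripts that match its seed. The mature sequence of miR-30a-5p was at chr1:23272274-23272295 on the plus strand of GRCm38, and the sequences are those of RefSeq. The capitals mark the seed, bases 2 to 8, which the 3 family members in the table share, and the other 2 come from genes that the mice keep.
miR-30a-5p: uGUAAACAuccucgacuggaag
miR-30c-5p: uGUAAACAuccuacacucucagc
miR-30e-5p: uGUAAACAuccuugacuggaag

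The perfect match to this seed, TGTTTAC on the transcript strand, was searched in the 3′ UTR of 1 transcript per gene (GENCODE M21, GRCm38, the longest coding sequence). It was found 3 times in *Gli2*, whose 3′ UTR was 1653 bases long, and once in the 3245 bases of *Gli3*. The other 6 genes held no match in 3′ UTRs of 104 bases (*Sufu*) to 6480 bases (*Hhip*). Of 21007 genes with a 3′ UTR, 12.6% held at least 1 match. The sites are printed with the seed match in capitals, in the order chr1:118835083-118835105, chr1:118834945-118834967 and chr1:118834421-118834443 on the minus strand for *Gli2*, then chr13:15728156-15728178 on the plus strand for *Gli3*.
Gli2 site A: gggtctctcctggccTGTTTACa
Gli2 site B: gaaaaggaagtcataTGTTTACc
Gli2 site C: ggcagcaaacttctcTGTTTACa
Gli3 site: cgtaaacaattaaagTGTTTACc
A match is a description of the letters and not a measured site. The values of *Gli2* and *Gli3* in these lungs follow below.

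The libraries held 8763033 to 16741694 gene counts each (median 11942546). *Gm10800* alone held 6.04% to 23.8% of the counts of a lung. The labels of sex were met: counts of *Xist* were 8834 to 27296 for females and 148 to 210 for males, and those of *Ddx3y* were 0 and 270 to 715. *Mir30a* had 0 counts in all 12 lungs, and libraries of this kind rarely count a short hairpin gene, so the zero does not test the deletion. Markers of the lung were present: 9 of the 10 marker lists had counts for all 10 of their genes. The erythroid list had counts for 9 of 10, and the symbol of the other gene was not in the count table. The lists for fibroblasts, smooth muscle, alveolar type 1 and type 2 cells, airway epithelium, endothelium, cartilage, Schwann cells and skeletal muscle did not pass the test for exposure (exact permutation test, two-sided, adjusted p from 0.303 to 0.794 over the 10 lists). The summed level of these 9 erythroid markers was 1303 to 4675 CPM (a count scaled to a common, normalized library size) after hyperoxia and 5100 to 8005 CPM in room air (exact permutation p = 0.0022, adjusted p = 0.022). The part of that difference in the results below was not tested. Male 1 in room air stood apart in skeletal muscle transcripts, with a summed level of 2502 CPM beside a median of 225 CPM in room air.

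Some reads fall on genes that the lung is not known to use. Their density was measured on 1488 olfactory and vomeronasal receptor genes and lay between 11.3 and 19.03 reads per kilobase of exon. Multiplied by a gene's exon length, it gives the counts that background alone would leave on that gene. For *Shh*, with an exon length of 2847 bases, this came to between 32.3 and 54.2 counts of the 81 to 201 that were measured. Summed over the 12 lungs, background amounted to 31.9% of the counts of *Shh* and 37.9% of those of *Gli3*. For *Gli1* and *Gli2* it was 20.01% and 20.2%, and for *Sufu*, *Smo*, *Hhip* and *Ptch1* it was 17.8%, 16.6%, 15.5% and 12.02%. So all 8 genes had more counts than background, by the least margin in *Gli3* of female 5 after hyperoxia, where 50.3% of the counts were background.

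Levels were compared between genes as CPM per kilobase of exon (RPKM). In these units *Ptch1* stood highest, at 9.58 ± 2.01 (SD, n = 12 lungs), followed by *Hhip* at 7.37 ± 1.68, *Smo* at 6.99 ± 1.07 and *Sufu* at 6.51 ± 0.84. *Gli1* and *Gli2* lay close together at 5.86 ± 0.43 and 5.78 ± 0.48. *Shh* and *Gli3* were the lowest, at 3.63 ± 0.62 and 3.09 ± 0.21. *Ptch1* exceeded *Hhip* in 11 of 12 lungs and *Gli2* exceeded *Shh* in 12 of 12. For the neighbours *Hhip* and *Smo*, *Smo* and *Sufu*, *Sufu* and *Gli1*, and *Gli1* and *Gli2*, the first was above the second in 8, 8, 10 and 5 of 12 lungs. Differences between genes were not tested. *Shh* exceeded *Gli3* in 9 of 12. Once background was taken off, the levels ran from 8.38 ± 2.27 for *Ptch1* to 1.89 ± 0.35 for *Gli3*. This step takes the same amount per kilobase from every gene of a lung, so it cannot change the order. Among 20950 protein-coding genes tested, the mean level of *Ptch1* was at percentile 84.0 and that of *Gli3* at percentile 32.6.

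**Figure D1:**
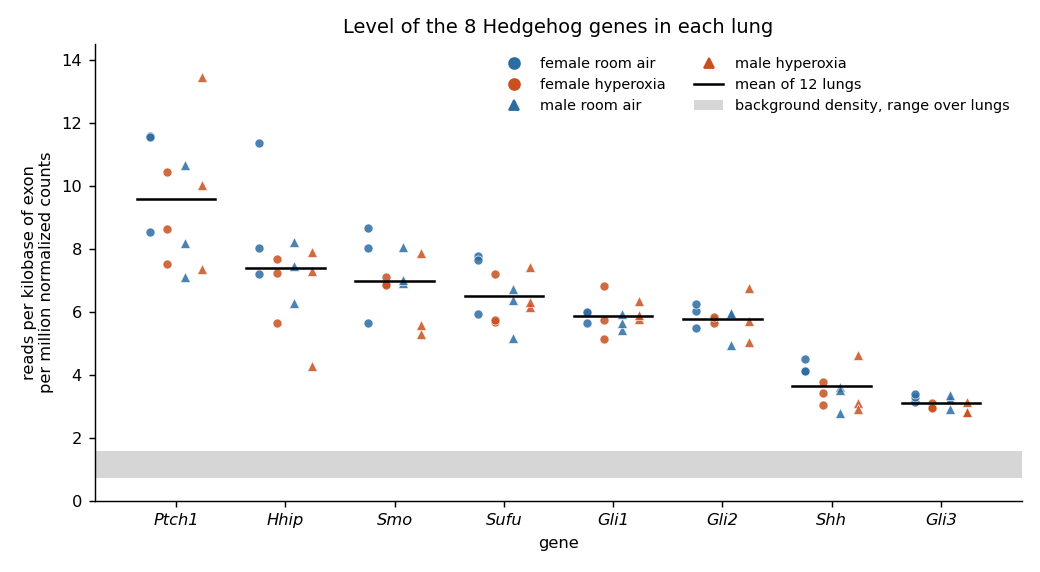
Level of each gene in every lung, in CPM per kilobase of exon. Points are single lungs, circles for females and triangles for males, blue for room air and orange for hyperoxia, black bars are means of 12 lungs, and the grey band is the range of the background density (0.725 to 1.58). *Ptch1* spreads from 7.11 to 13.5 and *Gli3* from 2.81 to 3.40.

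With both sexes pooled, 0 of the 8 genes were called for hyperoxia against room air, where a call needs a Benjamini-Hochberg adjusted p under 0.05 over all genes tested and a fold change over 1.5 (edgeR's quasi-likelihood test). By this rule 19 of 45828 genes, or 0.0415%, were called. At an unadjusted p under 0.05 the count was also 0 of 8, beside 5.2% of all genes, and DESeq2's Wald test called 0 of 8, beside 0.0742% of all genes. The smallest adjusted p was 0.927. The estimate was lower after hyperoxia for 6 genes and higher for 2, with a median log2 fold change of −0.070, whereas over all genes tested the median was 0.031 and 56.0% of the estimates were higher. The 6 include *Ptch1* at −0.00056 and *Sufu* at −0.037, which became 0.16 and 0.057 with the receptor share described below as a covariate. Marker estimates were also lower for most lists. Lower were 10 of 10 for alveolar type 1 cells (median log2 fold change −0.23), type 2 cells (−0.20) and airway epithelium (−0.35). So were 9 of 10 for endothelium (−0.14), and 7 of 10 for fibroblasts (−0.32) and for myofibroblasts and smooth muscle (−0.17). Of the other lists, 10 of 10 were lower for skeletal muscle (−0.77), 7 of 9 for the erythroid list (−1.11) and 6 of 10 for Schwann cells (−0.029). Cartilage went the other way, with 8 of 10 higher (0.084). The part of these markers in the pooled values was not tested. The 95% interval of the change held 0 for all 8 genes and stayed within a fold of 1.5 in either direction for 7. The exception was *Hhip*. Groups overlapped for every gene, and 0.214% of all genes had groups that did not. RNA of a whole lung does not tell fewer cells of a type from less RNA per cell. Pups of several litters were mixed before exposure and the labels give no litter, so p-values measure the spread between these animals. The comparisons in females and in males use parts of the lungs compared with both sexes pooled.

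**Figure D2:**
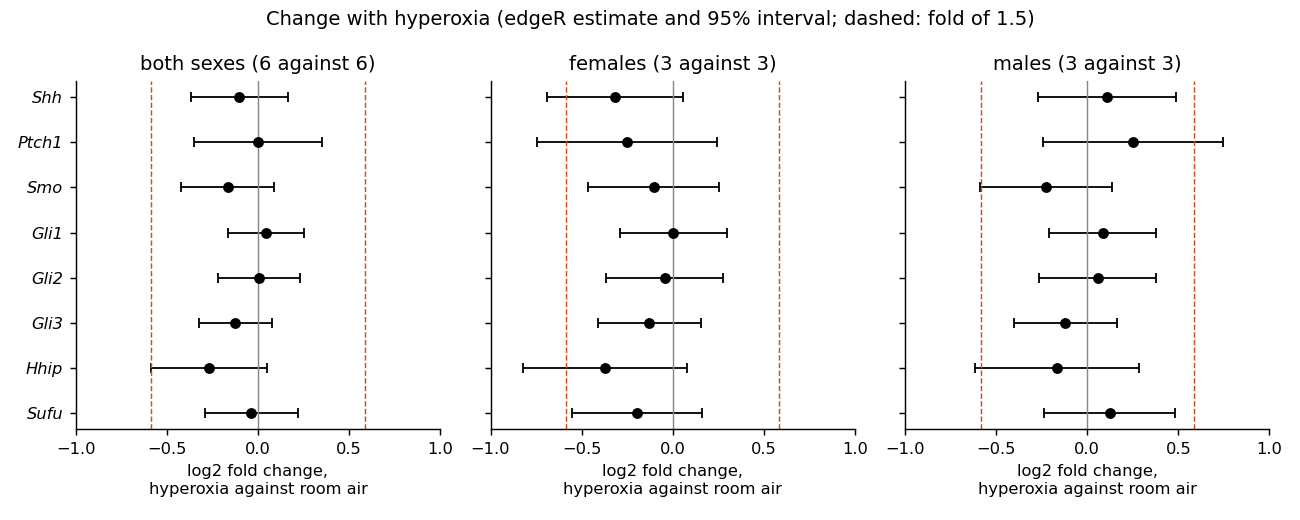
Log2 fold change of each gene for hyperoxia against room air in both sexes, in females and in males, with the 95% interval from edgeR. The dashed lines mark a fold of 1.5 and every interval crosses 0. The female and male panels use parts of the same lungs as the panel of both sexes.

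*Shh* (ENSMUSG00000002633, chr5:28456815-28467256, minus strand) encodes Sonic hedgehog, the ligand. In room air its level was 11.7, 12.8 and 11.8 CPM in females 2, 5 and 6, and 10.3, 9.999 and 7.95 CPM in males 1, 4 and 5. After hyperoxia it was 8.66, 9.76 and 10.7 CPM in females 2, 4 and 5, and 13.2, 8.82 and 8.27 CPM in males 1, 2 and 3. The 3 exposed females all lay below the 3 room air females, while male 1 after hyperoxia was the highest of all 12 lungs. The female estimate was a log2 fold change of −0.31 (standard error 0.18, 95% interval −0.69 to 0.058, adjusted p = 0.435, edgeR), and the exact permutation test gave p = 0.10, the smallest that 3 against 3 lungs allow. Males had a log2 fold change of 0.11 with an interval of −0.27 to 0.49, and both sexes together −0.10 with an interval of −0.37 to 0.16. That pooled value was −0.23 without male 1 after hyperoxia and −0.035 without male 3 after hyperoxia. The male value turned to −0.14 without male 1 after hyperoxia. The epithelial marker lists moved the same way in females: estimates were lower for 10 of 10 markers of alveolar type 1 cells and of type 2 cells and for 8 of 10 of the airway, beside 4, 2 and 7 of 10 in males. Their part in the values of *Shh* was not tested. Background was 37.4% to 39.4% of the *Shh* counts in the exposed females and 16.1% to 30.3% in the room air females. Exon bases of *Shh* are shared on the other strand with 9530036O11Rik, which had 104 to 230 counts, and with *Gm26894*, which was not analysed here. Since the strand setting of the counting is not given in the sources used here, these values of *Shh* are uncertain.

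*Ptch1* (ENSMUSG00000021466, chr13:63508328-63573598, minus strand) encodes Patched 1, both the ligand's receptor and a target of the pathway. Its room air levels were 164.1, 163.8 and 120.9 CPM in females 2, 5 and 6, and 100.8, 151.4 and 116.0 CPM in males 1, 4 and 5. After hyperoxia females 2, 4 and 5 had 148.2, 122.4 and 106.5 CPM and males 1, 2 and 3 had 191.0, 104.3 and 142.2 CPM. The highest lung was male 1 after hyperoxia and the lowest male 1 in room air, and the levels of each exposure overlapped in both sexes. The means were 136 ± 32.5 CPM after hyperoxia and 136 ± 27.1 CPM in room air (SD, n = 6), a log2 fold change of −0.00056 with a 95% interval of −0.35 to 0.35. The estimate was −0.25 in females (standard error 0.24) and 0.25 in males (standard error 0.24). Without 1 lung the female estimate ran from −0.39 (without female 2 after hyperoxia) to −0.14 (without female 5 after hyperoxia), and the male one from 0.012 (without male 1 after hyperoxia) to 0.45 (without male 2 after hyperoxia). The interaction of sex and hyperoxia, tested as such, was −0.50 (standard error 0.34, 95% interval −1.20 to 0.20, adjusted p = 0.586, edgeR).

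*Smo* (ENSMUSG00000001761, chr6:29735503-29761365, plus strand) encodes Smoothened, the membrane protein that Patched 1 restrains. In room air it was measured at 45.1, 48.7 and 31.8 CPM in females 2, 5 and 6, and 38.9, 45.2 and 39.4 CPM in males 1, 4 and 5. Under hyperoxia the values were 38.7, 39.8 and 38.5 CPM in females 2, 4 and 5, and 44.2, 29.7 and 31.3 CPM in males 1, 2 and 3. Female 6 in room air lay below all 3 exposed females, and male 1 after hyperoxia above all but 1 of the room air males. Over both sexes the log2 fold change was −0.17 (95% interval −0.42 to 0.089, adjusted p = 0.927, edgeR). Without 1 lung it ran from −0.27 to −0.10.

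*Hhip* (ENSMUSG00000064325, chr8:79965851-80058006, minus strand) encodes Hedgehog-interacting protein, a cell surface protein that binds the ligand away from the receptor and is induced by the pathway. Room air levels were 103.0, 72.7 and 65.3 CPM in females 2, 5 and 6, and 57.0, 74.4 and 67.6 CPM in males 1, 4 and 5. After hyperoxia they were 65.7, 51.1 and 69.7 CPM in females 2, 4 and 5, and 71.8, 38.75 and 66.2 CPM in males 1, 2 and 3. Female 2 in room air was the highest of the 12 lungs and male 2 after hyperoxia the lowest. Of the 8 genes *Hhip* had the estimate farthest from 0, a log2 fold change of −0.27 (standard error 0.16, 95% interval −0.59 to 0.050, adjusted p = 0.927, edgeR). Its lower bound lay just past a fold of 1.5. The estimate was −0.15 without male 2 after hyperoxia and also −0.15 without female 2 in room air. *Gm27820*, which shares exon bases with *Hhip* on the other strand, had 0 counts.

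*Sufu* (ENSMUSG00000025231, chr19:46396896-46488804, plus strand) encodes Suppressor of fused, which holds Gli proteins in the cytoplasm. It stood at 59.8, 58.7 and 45.5 CPM in room air females 2, 5 and 6, and at 39.85, 51.6 and 49.0 CPM in room air males 1, 4 and 5. After hyperoxia it stood at 55.3, 43.7 and 44.2 CPM in females 2, 4 and 5, and at 57.1, 47.3 and 48.5 CPM in males 1, 2 and 3. Levels after hyperoxia lay inside the range of the room air lungs in all 6 animals. The log2 fold change was −0.037 over both sexes (95% interval −0.29 to 0.22), −0.20 in females and 0.12 in males. Without 1 lung the female value ran from −0.32 (without female 2 after hyperoxia, and likewise without female 6 in room air) to −0.13 (without female 2 in room air), and the male one from 0.023 (without male 1 in room air) to 0.21 (without male 4 in room air). It was 0.038 without male 1 after hyperoxia.

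*Gli1* (ENSMUSG00000025407, chr10:127329882-127341974, minus strand) encodes an activator whose transcript is the most used readout of the pathway. In room air it lay at 29.8, 29.96 and 28.2 CPM in females 2, 5 and 6, and 27.1, 28.3 and 29.6 CPM in males 1, 4 and 5. After hyperoxia it lay at 28.7, 34.0 and 25.6 CPM in females 2, 4 and 5, and 31.8, 28.8 and 29.4 CPM in males 1, 2 and 3. Both the highest and the lowest lung were exposed females. The means were 29.7 ± 2.88 CPM after hyperoxia and 28.8 ± 1.16 CPM in room air (SD, n = 6), and the log2 fold change was 0.044 (95% interval −0.16 to 0.25, adjusted p = 0.964, edgeR). The interval corresponds to a fold between 0.893 and 1.19. On the other strand *Gli1* shares exon bases with *Arhgap9*, which had 215 to 380 counts beside 265 to 471 for *Gli1*, and with *Gm47200*, which had 5 to 14 counts, so its values carry the same uncertainty as those of *Shh*.

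*Gli2* (ENSMUSG00000048402, chr1:118834132-119053619, minus strand) encodes the main activator of targets in the lung mesenchyme. Its room air levels were 41.4, 42.8 and 37.8 CPM in females 2, 5 and 6, and 34.0, 40.7 and 40.9 CPM in males 1, 4 and 5. After hyperoxia the levels were 39.5, 38.7 and 40.1 CPM in females 2, 4 and 5, and 46.4, 39.2 and 34.7 CPM in males 1, 2 and 3. The exposed females lay inside the range of the room air females. Over both sexes the estimate was a log2 fold change of 0.0064 (95% interval −0.22 to 0.23).

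*Gli3* (ENSMUSG00000021318, chr13:15463235-15730026, plus strand) encodes the factor that acts largely as a repressor when the ligand is absent. It was measured at 30.2, 31.7 and 32.6 CPM in room air females 2, 5 and 6, and 30.9, 32.3 and 27.9 CPM in room air males 1, 4 and 5. After hyperoxia it was measured at 29.7, 28.5 and 28.4 CPM in females 2, 4 and 5, and 26.95, 29.9 and 27.03 CPM in males 1, 2 and 3. The exposed females all lay below the room air females, and 0 of the 6 exposed lungs exceeded the room air median of 31.3 CPM. The log2 fold change was −0.12 over both sexes (standard error 0.098, 95% interval −0.32 to 0.076, adjusted p = 0.927, edgeR). An exact permutation test of the mean log2 CPM, not adjusted, gave p = 0.024. The same test was run for all 8 genes in the pooled, the female, the male and the sex comparison. *Gli3* was also the gene with the most background, and *Gm6556* on the other strand, with 66 to 99 counts, shares exon bases with it.

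**Figure D3:**
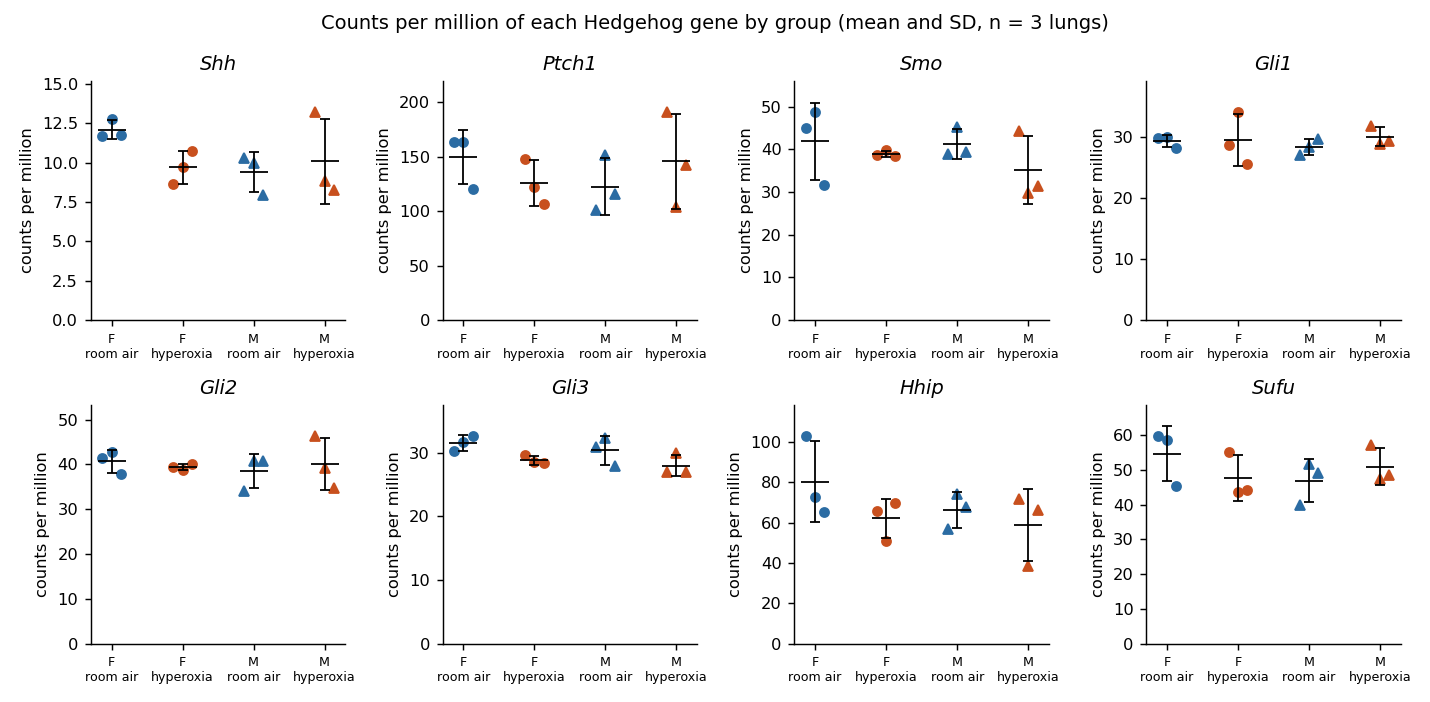
CPM of each gene in the 4 groups, with single lungs as points and the mean and SD of 3 lungs in black. Axes start at 0. *Shh* and *Gli3* are the 2 genes whose female groups do not overlap, and 1 male after hyperoxia is the highest lung for *Shh*, *Ptch1* and *Gli2*.

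In females alone 0 of 8 genes were called, beside 1 of all genes tested (0.00218%). At an unadjusted p under 0.05 the counts were 0 of 8 and 12.6% of all genes. The estimates of 7 of 8 genes were lower after hyperoxia, with a median log2 fold change of −0.16 beside 0.11 over all genes tested. With the receptor share described below as a covariate, 3 of 8 were lower (*Shh*, *Gli3* and *Hhip*). In the same females the estimates of 10 of 10 markers were lower for fibroblasts (median log2 fold change −0.38), endothelium (−0.37), alveolar type 1 cells (−0.48) and type 2 cells (−0.54). Lower too were 8 of 10 for airway epithelium (−0.53), 7 of 10 for myofibroblasts and smooth muscle (−0.17) and 7 of 9 for the erythroid list (−1.21). Other lists went the other way, with 7 of 10 higher for cartilage (0.17) and 6 of 10 for Schwann cells (0.084) and skeletal muscle (0.19). The part of these markers in the female values was not tested. The female groups of 2 of 8 genes did not overlap, beside 17.2% of all genes. In males 0 of 8 genes were called, as were 0% of all genes, and at an unadjusted p under 0.05 the counts were 0 of 8 and 2.7%. The median log2 fold change in males was 0.071, 5 of 8 estimates were higher, and groups overlapped for all 8 genes and were separate for 6.62% of all genes. The interval passed a fold of 1.5 for 3 genes in each sex, *Shh*, *Ptch1* and *Hhip* in females and *Ptch1*, *Smo* and *Hhip* in males, so changes of that size lay within what 3 lungs per group left undecided.

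The difference between the sexes in their change, tested as an interaction, was called for 0 of 8 genes and 0% of all genes, and at an unadjusted p under 0.05 for 0 of 8 and 8.46%. Its estimate was lower in females than in males for 7 of 8 genes and its interval passed a fold of 1.5 for 5. Over all genes tested 58.6% of these estimates were higher. Lower were 10 of 10 markers of alveolar type 1 cells, type 2 cells and endothelium, and 8 of 10 of fibroblasts and airway epithelium. Higher were 10 of 10 of skeletal muscle and 6 of 10 of cartilage and Schwann cells. The part of these markers in the interaction was not tested. Between females and males over both exposures 0 of 8 genes were called, beside 1.22% of all genes, and at an unadjusted p under 0.05 the counts were 0 of 8 and 6.88%. The sex estimates were small, with log2 fold changes of females against males from 0.011 for *Gli1* to 0.18 for *Hhip* and 95% intervals that all stayed within a fold of 1.5.

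Levels of several of these genes moved with the background itself. How many of all genes did so was not computed, so the relation cannot be called particular to these 8. The receptor share, the percentage of counts on the receptor genes, ran from 0.409% to 0.944% of a lung's counts. It was 0.765% ± 0.090 in exposed females and 0.555% ± 0.168 in room air females (SD, n = 3, exact permutation p = 0.20), and 0.727% ± 0.215 and 0.769% ± 0.128 in males (exact permutation p = 0.90). Over the 12 lungs the correlation of log2 CPM with the receptor share was tested for the 8 genes with 100000 permutations. For *Ptch1* it was r = −0.90 (adjusted permutation p = 0.00048, Spearman's rho = −0.95, adjusted permutation p = 0.00024), and r = −0.94 without the 2 lungs farthest from the median share. Within the exposed lungs r was −0.98 and within the room air lungs −0.92 (n = 6 each). *Sufu* followed with r = −0.87 (adjusted permutation p = 0.0011, rho = −0.87, adjusted permutation p = 0.0021), which was −0.84 without those 2 lungs. For *Smo*, *Hhip*, *Gli2* and *Shh*, r lay between −0.72 and −0.62, with adjusted permutation p from 0.021 to 0.041. These became −0.57, −0.84, −0.43 and −0.28 without the 2 farthest lungs, so for *Shh* the relation rests on those lungs. *Gli1* and *Gli3* had r = −0.37 and −0.13, with adjusted permutation p of 0.273 and 0.685. With background subtracted from every gene, *Ptch1* still had r = −0.79 (adjusted permutation p = 0.016), while the other genes no longer passed by r: *Sufu*, *Shh*, *Hhip*, *Smo* and *Gli2* had −0.65, −0.56, −0.49, −0.41 and −0.093, with adjusted permutation p of 0.084, 0.153, 0.214, 0.294 and 0.778. By Spearman's rho *Sufu* still passed (rho = −0.72, adjusted permutation p = 0.044).

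**Figure D4:**
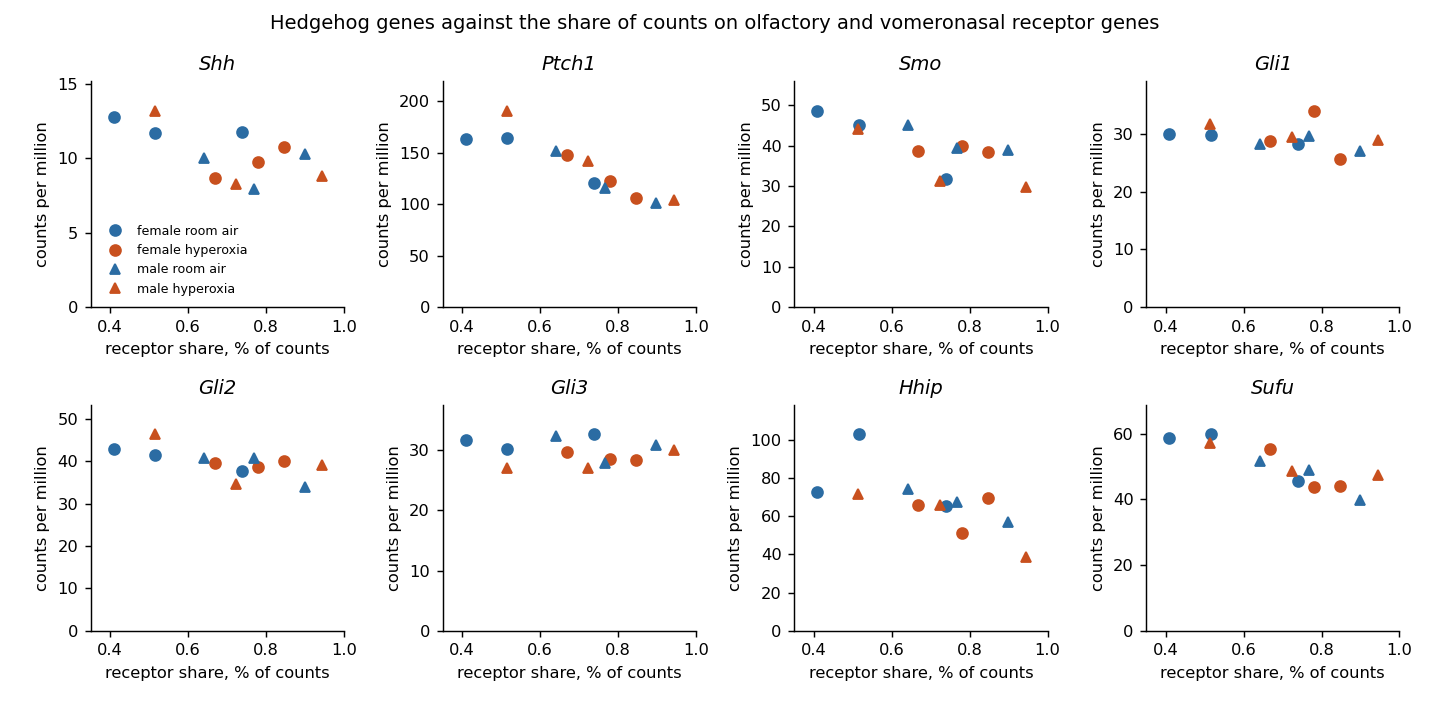
CPM of each gene (vertical axis, from 0) against the receptor share in percent of counts (horizontal axis), 1 point per lung with colours and shapes as for the levels. *Ptch1* had 191.0 CPM in the lung at 0.514% and 104.3 CPM in the lung at 0.944%, while *Gli3* keeps between 26.95 and 32.6 CPM.

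With the log2 receptor share as a covariate in the model, 0 of 8 genes were called in any of the 5 comparisons. Over all genes tested 0.0371% were then called in both sexes, 0.048% in females, 0.0131% in males, 0% for the interaction and 2.13% between the sexes. The median log2 fold change over all genes in females went from 0.11 to 0.0024. In females 4 estimates turned from lower to higher: *Ptch1* from −0.25 to 0.18, *Smo* from −0.10 to 0.24, *Gli2* from −0.045 to 0.097 and *Sufu* from −0.20 to 0.045. The pooled estimate of *Ptch1* became 0.16 (adjusted p = 0.556, edgeR).

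Whether ligand, receptor and targets varied together between lungs was examined over the 28 pairs of genes. By Pearson's r the pair *Ptch1* and *Sufu* passed the adjustment, with r = 0.88 (adjusted permutation p = 0.0062) and rho = 0.85 (adjusted permutation p = 0.026) over 12 lungs. Without the 2 lungs farthest on *Ptch1* the correlation was 0.85 but no longer passed (adjusted permutation p = 0.0686, n = 10), and on deviations from the 4 group means it was 0.85 (adjusted permutation p = 0.016). With background subtracted, *Ptch1* and *Sufu* had r = 0.71 and did not pass (adjusted permutation p = 0.291). By Spearman's rho *Gli2* and *Sufu* passed too (rho = 0.80, adjusted permutation p = 0.043), with r = 0.72 (adjusted permutation p = 0.105). No pair of the ligand and a readout passed: r was 0.47 for *Shh* and *Ptch1* (adjusted permutation p = 0.284, rho = 0.43), 0.43 for *Shh* and *Hhip* (adjusted permutation p = 0.343, rho = 0.41) and 0.086 for *Shh* and *Gli1* (adjusted permutation p = 0.882, rho = 0.091). With TMM these were 0.60, 0.55 and 0.33, with adjusted permutation p of 0.081, 0.099 and 0.336. The readouts *Ptch1* and *Hhip* had r = 0.63 (adjusted permutation p = 0.140, rho = 0.72), which passed with TMM (r = 0.71, adjusted permutation p = 0.027) and on deviations from group means (r = 0.72, adjusted permutation p = 0.039). *Ptch1* and *Gli1* had r = 0.46 (adjusted permutation p = 0.284, rho = 0.59), which passed with TMM (r = 0.73, adjusted permutation p = 0.028), and *Gli1* and *Hhip* had −0.071 (adjusted permutation p = 0.882, rho = 0.16). All pairs share libraries, depth and the receptor share described above. Among 3524 genes with under 20% background in every lung, the 5 most like *Gli1* over the 12 lungs were *Gm14978*, *Gm10180*, *Gm43050*, *Mid1* and *Fxyd7*, with r from 0.67 to 0.70. These 5 were picked as the highest of 3524 correlations and not tested, so no relation is read from them. *Gli1* itself had up to 29.2% background.

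The wider pathway was read in 50 further genes in 5 lists, all of them tested. By the call rule 0 of 50 were called for hyperoxia against room air in both sexes, beside the 0.0415% of all genes given above. At an unadjusted p under 0.05, 0 were higher and 3 lower, beside 5.2% of all genes in either direction, which is close to 3 of 50. The median log2 fold change was −0.035 in both sexes, −0.17 in females and 0.069 in males, beside 0.031, 0.11 and −0.011 over all genes tested. Estimates were lower for 31 of 50 genes in both sexes, 39 in females and 17 in males. Female marker estimates were lower as well for fibroblasts, endothelium and alveolar cells, and mostly higher for cartilage, Schwann cells and skeletal muscle. In females 7 of 50 were lower and 0 higher at an unadjusted p under 0.05, and in males 1 was lower and 0 higher, beside 12.6% and 2.7% of all genes in either direction, so both counts lay near the share over all genes.

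Ligand production and release held 8 genes with a median log2 fold change of 0.039 in both sexes. *Scube2*, which helps to release the lipid-modified ligand, was the highest of them per kilobase (35.5 ± 8.95, SD, n = 12) with a change of 0.024, and *Disp2*, of the Dispatched family, had −0.17. The 8 genes of reception had a median of −0.12. *Gpc3*, a membrane proteoglycan that competes with the receptor for ligand, stood at −0.31 (standard error 0.17) on the log2 scale in both sexes and at −0.59 in females (adjusted p = 0.364, edgeR). Signal relay had 14 genes with a median of −0.025. *Grk2*, a kinase that acts on receptors including Smoothened, had −0.30 (standard error 0.14, adjusted p = 0.927, edgeR), and *Spop*, a ubiquitin ligase adaptor for Gli proteins, had −0.21. Transport in the cilium had 10 genes with a median of −0.022, among them *Ift172* at −0.0060 and *Ift52* at −0.13.

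The list of target genes in mesenchyme held the values farthest from 0. *Ccnd1* encodes cyclin D1, which drives entry into the cell cycle and has many inputs besides Hedgehog. It had 27.9 to 44.8 CPM after hyperoxia (median 42.2) and 43.4 to 81.3 CPM in room air (median 56.0), so the groups overlapped. Its log2 fold change was −0.62 in both sexes (standard error 0.14, 95% interval −0.90 to −0.34, adjusted p = 0.133, edgeR), −0.71 in females and −0.53 in males. It was called without female 6 in room air (log2 fold change −0.71, adjusted p = 0.016), without male 1 after hyperoxia (−0.71, adjusted p = 0.023), by edgeR's likelihood ratio test (adjusted p = 0.014) and with RUVr factors. It was not called under the other alternatives: the adjusted p rose to 0.726 without female 2 in room air, 0.648 without male 3 after hyperoxia, 0.647 without male 4 in room air and 0.386 with TMM. With the receptor share as covariate the log2 fold change was −0.48, under the fold of 1.5, with an adjusted p of 2.7e-05 (edgeR). *Ccnd2*, named after its values were seen, had −0.44 (adjusted p = 0.927, edgeR). *Foxf1*, a mesenchymal transcription factor and a known target, was the highest of the list at 56.2 ± 18.7 per kilobase, with −0.32 in both sexes and −0.68 in females (adjusted p = 0.357, edgeR). The median of the 10 targets was −0.062.

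**Figure D5:**
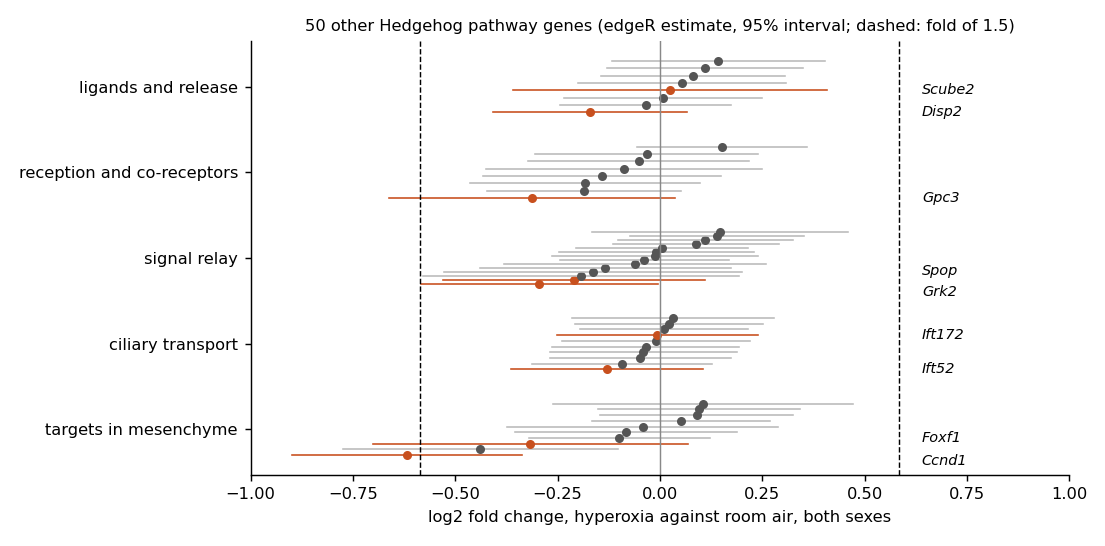
Log2 fold change for hyperoxia against room air in both sexes for 50 further pathway genes by list, with 95% intervals from edgeR. Orange marks the genes named in the text by rule, dashed lines a fold of 1.5. The intervals of *Ccnd1*, *Ccnd2* and *Grk2* lie below 0 and the others cross it, with *Ccnd1* at −0.62.

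The promoters were searched for the Gli consensus TGGGTGGTC on both strands, in RefSeq promoters of 300 bases (250 before and 50 after the start, GRCm38). The table holds 6 of the 8 promoters, and those of *Shh* and *Gli1* were not searched. The motif was in 0 of the 6, and in 83 of 32851 promoters (0.253%). No match says only that these letters are not in these windows.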

How the data were processed

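Whole-lung RNA-Seq of 12 miR-30a-/- mice was analysed, in 4 groups of sex and exposure taken from the sample titles and characteristics. The submitters' notes name Trim Galore, STAR, featureCounts and mm10 (GRCm38), and the authors deposited raw counts per gene. Versions and the strand setting of the counting are not given in the sources used here. For library preparation the methods name a QIAseq stranded kit and the labels a NEBNext directional kit. The ComBat-seq batch step of the study was left out, and so were RUVr factors in the main model, since the sources do not say how many were used. Of the deposited columns, 0 were left without a sample, and 0 rows lacked a gene symbol.

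Counts were fitted with edgeR 4.0.16 (R 4.3.3, limma 3.58.1), by the robust quasi-likelihood test over 4 group means with upper-quartile normalization, for 45828 genes kept by filterByExpr. The biological coefficient of variation was 0.177. Contrasts were hyperoxia against room air in both sexes (mean of the sexes), females and males, their interaction, and females against males. Intervals are at 95% and not adjusted over genes. CPM used normalized library sizes and log2 CPM a prior count of 2. A floor of 3 counts was 0.191 to 0.327 CPM, and covers counting error only. Correlations used 100000 permutations, or 20000 where lungs were left out. Exon lengths came from GENCODE M21 (55227 genes matched). No 2 libraries agreed within sampling noise. Scripts were tested on simulated data.

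The 8 genes, the wider lists and the marker lists were chosen with earlier results of these data known. The text names all 8 genes, and from each wider list every called gene, otherwise the gene with the smallest pooled p and the gene with the highest level. The alternatives tried were RUVr with 1, 2 or 3 factors, TMM, the likelihood ratio test, DESeq2 1.42.0, no filter, 10 counts in every library, background subtracted, the receptor share as covariate, adjusted p alone, an additive model, only the 6 libraries compared, a replicate block in females, and each lung left out.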

Additional observations from a re-analysis of the deposited data

How the results depend on the processing

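For the 8 genes the count of calls was 0 in each comparison under each single alternative run for it. The additive model was run for both sexes only, and the fits of 6 libraries and the replicate block within 1 sex only. With the adjusted p alone as threshold and RUVr factors together, a combination chosen after seeing the data, it was 1 of 8 in females with 1, 2 or 3 factors, and for the interaction 1 with 1 or 2 factors and 2 with 3. The gene was *Ptch1*, with a log2 fold change of −0.25 in females and an adjusted p of 0.015, 0.014 and 0.0034 (edgeR), joined by *Sufu* for the interaction. At the same threshold 16.7% to 18.5% of all genes passed in females and 11.7% to 13.7% for the interaction, so 1 of 8 lies near the share over all genes. With the fold rule RUVr raised all-gene calls in females from 1 to between 1898 and 2051.

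Of the 24 changes of single genes, 12 kept their sign under every alternative. The other 12 turned at least once. In both sexes *Ptch1* was 0.029 with 10 counts in every library, 0.058 with background subtracted, 0.16 with the receptor share and 0.0034 in the additive model, *Gli2* was −0.014 with TMM, −0.011 with no filter and −0.035 by DESeq2, and *Sufu* was 0.016 with background subtracted and 0.057 with the receptor share. In females the receptor share gave 0.18 for *Ptch1*, 0.24 for *Smo*, 0.097 for *Gli2* and 0.045 for *Sufu*, background subtraction 0.053 for *Smo* and 0.078 for *Gli2*, 10 counts in every library 0.025 for *Gli2*, and TMM, no filter and DESeq2 −0.036, −0.039 and −0.095 for *Gli1*. Among the wider genes *Scube2* was −0.011 by DESeq2, and *Ift172* was 0.025, 0.057 and 0.042 with 10 counts, background subtracted and the receptor share. With 1 lung left out, *Scube2* ran from −0.15 to 0.14 and *Ift172* from −0.037 to 0.025. Estimates in both sexes ran from −0.013 to 0.092 for *Gli1*, −0.053 to 0.056 for *Gli2*, −0.12 to 0.098 for *Ptch1* and −0.097 to 0.0054 for *Sufu*. In females they ran from −0.11 to 0.098 for *Gli1* and −0.27 to 0.018 for *Smo*, and in males from −0.059 to 0.16 for *Gli2*, −0.33 to 0.066 for *Hhip* and −0.14 to 0.25 for *Shh*. The causes were not tested.

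The wider pathway had 1 call in place of 0, *Ccnd1*, with each number of RUVr factors and by the likelihood ratio test, and 0 to 1 without 1 lung. Over all genes 0.201%, 0.257% and 0.284% were called with 1, 2 and 3 factors, 0.0807% by the likelihood ratio test, 0.0684% without female 6 in room air and 0.0788% without male 1 after hyperoxia, beside 0.0415%. Pairs of genes that passed by Pearson's r were 9 with TMM, 6 on deviations from group means, 0 with background subtracted and 0 without the 2 farthest lungs, in place of 1, and 1 to 3 without 1 lung (3 without male 3 after hyperoxia). By Spearman's rho they were 2, and 11 with TMM, 2 on deviations and 0 with background subtracted.

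Animal numbers are shared by 2 female pairs, with correlations of 0.060 and −0.17 between their deviations, and pups of several litters were pooled, so the numbers name animals only. With a replicate block in females 0 of 8 genes were called and *Gli1* was −0.15, while all-gene calls rose from 1 to 420. Males share 1 number, which allows no block.

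With 3 lungs per group, the 95% interval passed a fold of 1.5 for 3 of the 8 genes in each sex. *Shh*, with 81 to 201 counts, was among them in females only.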
